A study of Rattus norvegicus with 23 samples.

Results

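The enzymes that make and desaturate fatty acids were followed through 10 rat genes, Fasn, Acaca, Acly, Scd, Scd2, Elovl5, Elovl6, Fads1, Fads2 and the regulator Srebf1. They were chosen by name, as every array probe whose gene name in the scanner files was one of these symbols (Scd is written Scd1 there). The array held 17 such probes among 41012, for 10 of the 15281 genes named on it. A probe was kept when its signal stood well above background on at least 50% of the arrays of a group, and 15 of the 17 probes, for 9 genes, passed.

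Cells build saturated fatty acids from acetyl units in the cytosol. ATP citrate lyase (Acly) releases acetyl-CoA from citrate, acetyl-CoA carboxylase (Acaca) turns it into malonyl-CoA, and fatty acid synthase (Fasn) joins these units into palmitate. Elovl6 lengthens palmitate, the stearoyl-CoA desaturases Scd and Scd2 place the first double bond, and Elovl5, Fads1 and Fads2 lengthen and desaturate polyunsaturated chains. Srebf1 encodes SREBP-1, the transcription factor through which insulin and feeding raise most of these genes in liver and fat tissue. In lymphocytes and monocytes the pathway is best known for supplying membrane lipid to cells that grow or become activated.

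The RNA came from peripheral blood mononuclear cells (PBMC), the lymphocytes and monocytes that a density gradient separates from blood, of Wistar rat pups aged 21 days. In the calorie-restricted (CR) groups, 5 males and 6 females, the dams ate 20% fewer calories from day 1 after delivery until weaning on day 21. In the control groups, 6 males and 6 females, the dams ate standard chow freely. Blood was taken at weaning, when the pups fed freely, so the groups differ in what the dam ate during lactation. Each pup had an array of its own, on which its Cy5-labelled RNA was set against a Cy3-labelled pool of all samples, with no dye swap. The study used 5 CR dams and 11 control dams, the labels do not tie pups to dams, and pups of 1 litter were necessarily treated as independent, so p-values may be too small. All values below are log2 ratios of a pup to the pool, and all differences are CR minus control on that log2 scale unless said otherwise.

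Between 20603 and 24076 probes per array stood well above background in Cy5, and saturation touched no more than 1 probe on any array. Precision was set by the number of arrays: over all kept probes the median standard error of a difference was 0.08 within either sex and 0.06 for their mean. The ratios of 4 arrays spread less than 0.5 times as widely as on the median array (CR male 4, CR female 2, CR female 5 and control female 2), and CR male 1 and CR female 5 correlated least with the rest. The labelled cells were checked by their markers: 16 T cell markers, 10 B cell markers and 11 monocyte markers on the array were all kept. Red cell markers (10 of 10) and platelet markers (9 of 9) were kept too. Of 8 fat cell markers, Adipoq, Lep, Plin1, Cidec and Pparg were not kept and Cfd, Lipe and Retn were, and 6 of 9 hepatocyte markers were kept.

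B cell markers were on average lower in CR pups, with none past the adjusted test. Their mean log2 ratio was -0.23 ± 0.28 in CR males (SD, n = 5) and 0.19 ± 0.27 in control males (SD, n = 6). In females it was 0.02 ± 0.21 in CR pups and 0.26 ± 0.31 in control pups (SD, n = 6 each). All 10 markers were lower in CR for the mean of the sexes, with a median difference of -0.39. At an unadjusted limma p under 0.05, 8 of them were lower, against 4.96% of all kept probes. Within the sexes, 10 of 10 were lower in males and 8 of 10 in females, where the highest difference was 0.31. By pup the mean over the B cell markers ran from -0.65 to 0.12 in CR males against -0.11 to 0.67 in control males, and from -0.25 to 0.28 in CR females against -0.12 to 0.75 in control females, so the groups overlapped. T cell markers had a median difference of 0.01 and monocyte markers of 0.01. Proliferation markers were lower in 11 of 11 cases in CR males (median -0.17) and in 2 of 11 in CR females (median 0.07). Platelet markers were lower in 8 of 9 cases for the mean of the sexes (median -0.23), 0 of them at an unadjusted limma p under 0.05. Their median was -0.11 in males and -0.31 in females. The median for monocyte markers was 0.14 in males and -0.15 in females, that for NK cell markers 0.23 and 0.01, and that for neutrophil markers 0.16 and 0.14. Red cell markers averaged -0.27 ± 0.63 in CR males (SD, n = 5) and -0.85 ± 0.66 in control males (SD, n = 6), and -0.39 ± 0.96 in CR females and -0.12 ± 0.80 in control females (SD, n = 6 each). Besides B cell markers, only T cell markers were used as a covariate below. The part of the other lists in the results was not tested. In these bulk samples, fewer cells of a type and less RNA per cell cannot be told apart.

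The first question was whether the pathway differed between pups of CR and control dams. No probe of the 10 genes passed the test within either sex or for the mean of the sexes (limma, Benjamini-Hochberg adjustment over all 23693 kept probes, threshold 0.05), and the same share, 0%, of all kept probes did. The smallest adjusted p was 0.627 among males, 0.927 among females and 0.351 for the mean of both. The direction was uneven: 12 of the 15 probes were lower in CR for the mean of the sexes, against 49.3% of all kept probes. At an unadjusted p under 0.05, 6 of the 15 probes were lower in CR and 0 higher, where 4.96% of all kept probes were lower and 2.46% higher. These 6 probes belong to Fasn, Srebf1, Scd and Scd2, so they are 4 genes and not 6 independent findings. The members were chosen with earlier results of these data known, so these counts are a description and no independent evidence. In males alone 2 of the 15 were lower at that level and 0 higher (4.02% and 3.46% of all probes), and in females 5 were lower and 0 higher (2.82% and 1.92%). The median difference of the 15 probes was -0.08 among males, -0.17 among females and -0.07 for the mean of both, beside medians over all kept probes of -0.0046, -0.0002 and 0.0012.

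**Figure D1:**
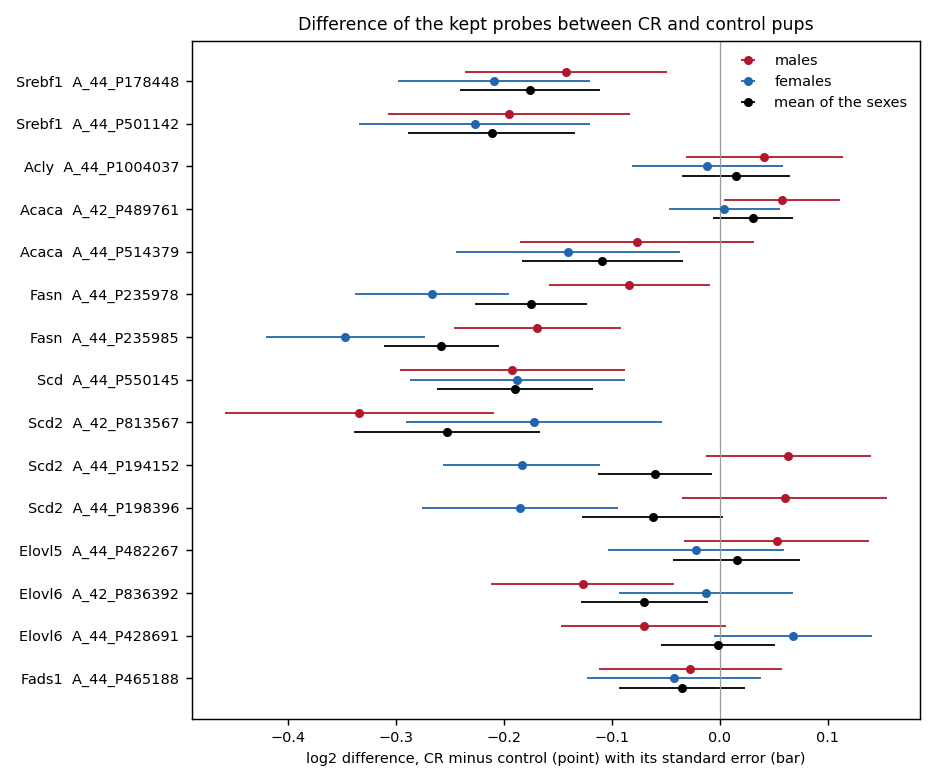
Difference of each kept probe, CR minus control (horizontal axis, log2), in males (red) and females (blue) and averaged over both (black), with standard errors as bars. Srebf1, Fasn, Scd and the Scd2 probe A_42_P813567 lie below 0 in both sexes, whereas Acly, Elovl5 and Fads1 lie within 0.06 of 0.

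Srebf1, the regulator, was lower in CR pups at both of its kept probes, neither of which passed the adjusted test. The brighter probe, A_44_P178448 (rn4 chr10:46462235-46462294, minus strand), read -0.53, -0.15, -0.45, -0.14 and -0.14 in the 5 CR males. In control males it ran from -0.38 to 0.05 with a median of -0.13. Its mean was -0.28 ± 0.19 in CR males (SD, n = 5) and -0.14 ± 0.15 in control males (SD, n = 6), and the ranges overlapped. The lowest values were those of CR males 1 and 3.

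In females the same Srebf1 probe ran from -0.35 to 0.07 with a median of -0.25 in CR pups, and from -0.17 to 0.25 with a median of 0.00 in controls. All 6 control females lay above the CR mean, and 5 of 6 CR females below the control mean. For the mean of the sexes the difference was -0.18 ± 0.06 (SE; 95% interval -0.31 to -0.04), or -11.5%, with an adjusted limma p of 0.592 and an exact two-sided permutation p of 0.0146. With array quality weights in place of equal weights it was -0.08 ± 0.07, with median centring in place of loess -0.41, and it kept the value of -0.18 with B cell markers as a covariate.

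The other Srebf1 probe, A_44_P501142, spans 517 bases of the genome (rn4 chr10:46463470-46463986, minus strand), so its 60 letters cannot be one unbroken stretch there. It is spotted 10 times on each array, which gives a measure of technical error that no other member has. The 10 spots of an array had a median SD of 0.06 in their log2 ratio, whereas the arrays of a group differed by an SD of 0.19 in their means. This probe averaged -0.08 ± 0.27 in CR males (SD, n = 5) and 0.12 ± 0.14 in control males (SD, n = 6), and 0.08 ± 0.11 in CR females and 0.31 ± 0.23 in control females (SD, n = 6 each). Its difference for the mean of the sexes was -0.21 ± 0.08 (SE; adjusted limma p 0.592, exact permutation p 0.0155), and -0.38 with median centring. CR male 2 stood at 0.30, above all other CR pups, so the groups overlapped. The third Srebf1 probe, A_42_P667564, was above background on 2 of 23 arrays only, in 1 control male and 1 control female, and was not tested.

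Sequence upstream of the start sites is shown for Srebf1 and Scd2, as examples of windows that hold CCAAT, because SREBP-1 acts on its target promoters together with NF-Y, a factor that binds the letters CCAAT. The windows are the 250 bases before the start in the RefSeq table of assembly GRCr8, and 7 of the 10 genes matched it with 8 windows, 2 of them for Srebf1. Capitals mark CCAAT or its reverse complement.

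Scd2 upstream of the start, chr1:253118127-253118376, plus strand: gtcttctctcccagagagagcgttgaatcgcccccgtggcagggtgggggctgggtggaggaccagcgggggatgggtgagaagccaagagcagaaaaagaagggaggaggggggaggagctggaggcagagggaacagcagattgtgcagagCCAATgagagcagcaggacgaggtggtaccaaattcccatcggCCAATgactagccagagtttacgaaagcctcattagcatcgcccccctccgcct
Srebf1 upstream of the start, chr10:45529165-45529414, minus strand: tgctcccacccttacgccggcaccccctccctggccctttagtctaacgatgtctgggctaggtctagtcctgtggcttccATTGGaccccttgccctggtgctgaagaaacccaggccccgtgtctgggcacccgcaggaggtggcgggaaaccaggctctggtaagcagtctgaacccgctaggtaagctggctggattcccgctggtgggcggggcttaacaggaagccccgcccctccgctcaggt
Srebf1 upstream of the start, chr10:45519011-45519260, minus strand: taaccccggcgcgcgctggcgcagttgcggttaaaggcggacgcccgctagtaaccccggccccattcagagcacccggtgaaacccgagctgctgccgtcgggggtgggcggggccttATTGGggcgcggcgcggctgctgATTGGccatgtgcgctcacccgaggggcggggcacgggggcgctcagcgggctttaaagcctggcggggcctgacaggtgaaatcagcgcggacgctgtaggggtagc

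CCAAT stood on either strand in 6 of the 8 windows, those of Scd2, Srebf1 (both), Fads1, Elovl5 and Acly and not those of Scd and Fads2, against 34.0% of all 33469 windows of that length. The Sp1 box GGGCGG stood in 5 of the 8 windows (Fads1, Fads2, Acly and both of Srebf1), against 30.5%. The E-box CACGTG stood in 1, that of Elovl5, against 5.59%. TCACNCCAC, a form of the sterol regulatory element, stood in 0 of the 8 and in 0.974% of all windows. The window of Scd held none of the 4 motifs. Both strands were searched for each motif, the motifs do not share letters in any of the 3 printed windows, and a match is a description of the letters only. Fasn, Acaca and Elovl6 had no window to search.

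**Figure D2:**
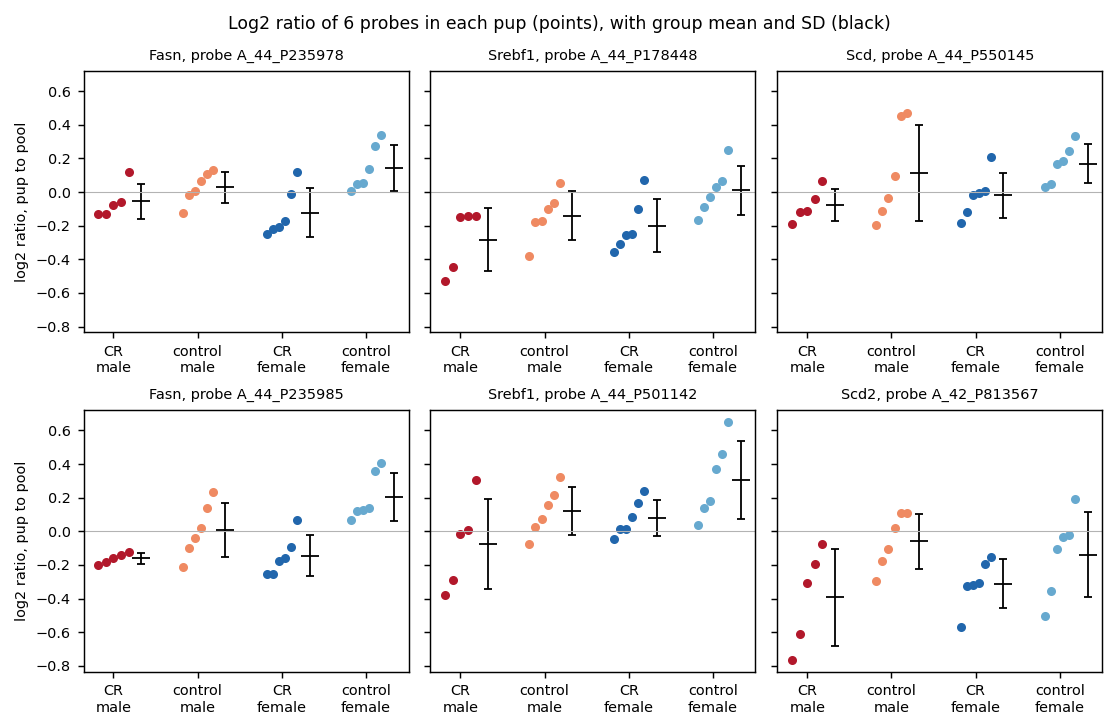
Log2 ratio of a pup to the pool (vertical axis) for 6 probes in each pup, with the group mean and SD in black. The 5 CR males lie between -0.20 and -0.12 for the Fasn probe A_44_P235985, and 5 of 6 CR females lie below all 6 control females for it.

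Fasn, the synthase itself, gave the smallest p of the pathway. Probe A_44_P235985 read -0.20, -0.18, -0.12, -0.14 and -0.16 in CR males, a mean of -0.16 ± 0.03 (SD, n = 5). Control males ran from -0.21 to 0.23 with a median of -0.01 and averaged 0.01 ± 0.16 (SD, n = 6). The CR males lay close together, inside the wide range of the control males. CR females ran from -0.26 to 0.07 with a median of -0.17 and averaged -0.14 ± 0.12, whereas control females ran from 0.06 to 0.41 with a median of 0.13 and averaged 0.20 ± 0.14 (SD, n = 6 each). CR female 2, at 0.07, was the single CR female within the range of the controls.

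The difference at this Fasn probe was -0.17 ± 0.08 in males and -0.35 ± 0.07 in females (SE). For the mean of the sexes it was -0.26 ± 0.05 (95% interval -0.37 to -0.15), or -16.4%. The adjusted limma p was 0.351, the exact two-sided permutation p was 0.000162, and 5 of 5 CR males and 6 of 6 CR females lay below the control mean of their sex. In order from low to high the groups were CR males, CR females, control males and control females. The first 2 of these differed by less than their SD. On the 6 slides that held both diets in females, the CR female was lower on 6 of 6, with differences of -0.52 to -0.05, and in males the CR pup was lower on 3 of 4 slides.

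The brighter Fasn probe, A_44_P235978, gave smaller differences. It averaged -0.06 ± 0.10 in CR males (SD, n = 5) and 0.03 ± 0.09 in control males (SD, n = 6), and -0.12 ± 0.15 in CR females and 0.14 ± 0.13 in control females (SD, n = 6 each). The difference for the mean of the sexes was -0.175 ± 0.05 (SE; adjusted limma p 0.592, exact permutation p 0.00369), and -0.27 ± 0.07 in females alone. CR female 6 and CR male 3 were both at 0.12, above the other CR pups. The scanner files give no position for either Fasn probe. The pups' own Cy5 channel, taken alone, gave -0.25 and -0.32 at the brighter and the dimmer probe. The Cy3 channel, which held the same pool on every array, gave -0.07 and -0.05 (unadjusted limma p 0.028 and 0.0667), and -0.08 at the dimmer probe in males (unadjusted limma p 0.0258). With median centring in place of loess the differences were -0.42 and -0.50, beside a shift of the median of all probes of -0.10, and -0.20 at A_44_P235985 with quality weights.

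Acaca, which makes the malonyl-CoA that Fasn uses, disagreed between its 2 probes. Probe A_44_P514379 (rn4 chr10:72678945-72679004, plus strand) averaged -0.09 ± 0.12 in CR males (SD, n = 5) and -0.01 ± 0.14 in control males (SD, n = 6). In females it averaged 0.03 ± 0.23 in CR pups and 0.17 ± 0.22 in control pups (SD, n = 6 each). Its difference for the mean of the sexes was -0.11 ± 0.07 (SE; adjusted limma p 0.807). Probe A_42_P489761 (rn4 chr10:72677048-72677107), read 0.03 ± 0.04 (SE; adjusted p 0.913), with a median intensity of 84.4 over a local background of 27. The 2 Acaca probes did not vary together from pup to pup (r of -0.01 over 23 arrays). With quality weights the difference at the brighter probe was -0.03.

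Acly, at the head of the pathway, differed little. Its single probe averaged 0.06 ± 0.14 in CR males (SD, n = 5) and 0.01 ± 0.13 in control males (SD, n = 6), and 0.03 ± 0.11 in CR females and 0.04 ± 0.10 in control females (SD, n = 6 each). The 95% interval of the difference for the mean of the sexes was -0.09 to 0.12, so a fall as large as that of the Fasn probe A_44_P235985, -0.26, lies outside it.

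Of the desaturases of saturated chains, Scd and 1 of the 3 Scd2 probes had lower means in CR pups of either sex, and none passed the adjusted test. Scd (rn4 chr1:249459057-249459116, minus strand) read -0.04, 0.06, -0.11, -0.12 and -0.19 in CR males. Control males ran from -0.19 to 0.47 with a median of 0.03, and control males 3 and 4 stood at 0.45 and 0.47, apart from the other 4. CR females ran from -0.19 to 0.21 with a median of -0.01, against 0.03 to 0.33 with a median of 0.17 in control females. The ranges overlapped in both sexes. The difference for the mean of the sexes was -0.19 ± 0.07 (SE; adjusted limma p 0.592, exact permutation p 0.0177).

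The size of the Scd difference rests on the background correction, since its median intensity was 83.2 over a local background of 28. An offset of 10 in place of 50 gave -0.33, and the scanner software's own ratio gave -0.86. Both are negative, and the offset shrinks ratios of dim probes by its construction. With B cell markers as a covariate the Scd difference was -0.10 ± 0.08.

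Scd2 is a separate gene whose nearest probe lies 88.2 kb from that of Scd, and its 3 probes differed from each other. The bright probe A_42_P813567 (rn4 chr1:249370837-249370896, plus strand, median intensity 3320) is the most 3′ of the 3. It read -0.76, -0.31, -0.61, -0.20 and -0.08 in CR males, and from -0.30 to 0.11 with a median of -0.04 in control males. CR females ran from -0.57 to -0.15 with a median of -0.31, and control females from -0.51 to 0.19 with a median of -0.07. CR males 1 and 3 were the lowest pups of all. The difference was -0.33 ± 0.12 among males, -0.17 ± 0.12 among females and -0.25 ± 0.09 for the mean of both (SE; adjusted limma p 0.592, exact permutation p 0.0112). With median centring the last was -0.50.

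1 array lay apart in both channels at the bright Scd2 probe. Control male 4 read 9.57 in Cy3, the pool's channel, where the other 5 control males lay at 10.27 or above (log2 signal), and 10.99 in Cy5, where they lay at 11.57 or above. Cy5 alone differed by -0.09 among males and by -0.21 without that array, and Cy3 alone by 0.23 (unadjusted limma p 0.0359) and by 0.09 without it. The difference of the ratios among males was -0.30 without control male 4, an array chosen after seeing the data.

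The dimmer Scd2 probes, A_44_P194152 (rn4 chr1:249365537-249365596) and A_44_P198396 (rn4 chr1:249369161-249369220), were lower in CR females and not in CR males. A_44_P194152 averaged 0.17 ± 0.22 in CR males (SD, n = 5) and 0.11 ± 0.11 in control males (SD, n = 6), and 0.06 ± 0.05 in CR females and 0.24 ± 0.08 in control females (SD, n = 6 each). The female CR pup was lower on 6 of 6 slides for this probe. The male minus female difference of the 2 diet effects was 0.25 ± 0.11 (SE; unadjusted limma p 0.0286, adjusted p 0.92), so it did not pass. A_44_P198396 gave 0.06 ± 0.10 in males and -0.18 ± 0.09 in females (SE).

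Pup by pup the bright Scd2 probe ran against A_44_P194152. After the group means were taken out, the bright probe and A_44_P194152 had a Pearson's r of -0.68 over 23 arrays (Spearman's rho -0.69, permutation p 0.00214 for r and 0.00231 for rho, adjusted p 0.0184 over 43 relations). Without the 2 arrays farthest from the median of the bright probe r was -0.69, and with slide means also removed it was -0.66. With A_44_P198396 the bright probe had r of -0.36, and the dimmer probes had r of 0.42 with each other. A slide held at most 4 arrays, too few for a value within each. The relation depended on the normalization: centring each array on its median in place of loess turned r to 0.31, and Cy5 alone gave -0.48. On CR males 1 and 3, where the bright probe was lowest, both dimmer probes were at their highest among CR pups.

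**Figure D3:**
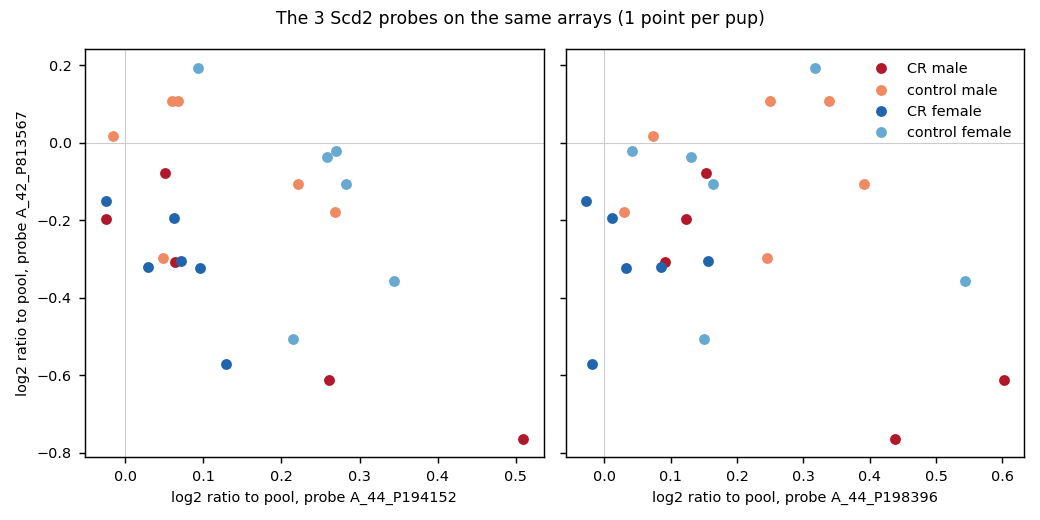
Log2 ratio to the pool of the bright Scd2 probe A_42_P813567 (vertical axis) against the dimmer probes A_44_P194152 (left) and A_44_P198396 (right), 1 point per pup. CR males 1 and 3 are the lowest points of both panels, with the bright probe at -0.76 and -0.61. CR male 1 lies farthest right in the left panel, and CR male 3 in the right panel.

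The elongases and the desaturases of polyunsaturated chains gave small differences. Elovl6, which lengthens palmitate, had -0.07 ± 0.06 at A_42_P836392 and 0.00 ± 0.05 at A_44_P428691 for the mean of the sexes (SE; adjusted limma p 0.853 and 0.997). The second Elovl6 probe spans 4774 bases of the genome. Elovl5 had 0.02 ± 0.06 and Fads1 -0.03 ± 0.06 (SE), and their 95% intervals were -0.11 to 0.14 and -0.16 to 0.09. Fads1 was above background on 19 of 23 arrays, so its values lie near the limit of the array. Its groups averaged 0.03 ± 0.12 in CR males, 0.06 ± 0.08 in control males, 0.04 ± 0.23 in CR females and 0.08 ± 0.06 in control females (SD, n = 5, 6, 6 and 6). CR female 6, at 0.46, was the highest pup at Fads1. The Fads2 probe, 145 kb from that of Fads1, was not well above background on any of the 23 arrays, and no level is given for it.

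Between the sexes no member passed the test either (males minus females over both diets, smallest adjusted limma p 0.691), whereas 13 of the 23693 probes, 0.0549%, did. The Srebf1 probe A_44_P501142 was 0.17 lower in males on the log2 scale (-0.17 ± 0.08, SE; unadjusted p 0.0389), and it was the single member probe of 15 that was lower at an unadjusted p under 0.05, against 3.61% of all probes, with 0 higher against 3.57%. The male minus female difference of the diet effects was 0.18 ± 0.10 and 0.18 ± 0.11 (SE) at the Fasn probes A_44_P235978 and A_44_P235985, so the larger Fasn difference in females is not shown to differ from that in males (unadjusted limma p 0.0907 and 0.111). Median centring gave that difference the opposite sign. The Scd2 probe A_44_P194152, 1 of 15, had a positive value at an unadjusted p under 0.05 in this contrast, against 2.27% of all probes, and 0 had a negative one, against 2.58%.

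The mean level of the B cell markers, which itself differed between the diet groups, was used as a covariate, and the differences changed unequally. Whether it varied with the members from pup to pup was not tested. For the mean of the sexes the Fasn probe A_44_P235985 had -0.22 ± 0.06 with the covariate and the brighter Fasn probe -0.12 ± 0.06 (SE). Srebf1 kept its values, -0.18 ± 0.08 at A_44_P178448 and -0.21 ± 0.10 at A_44_P501142. Scd and the bright Scd2 probe had -0.10 ± 0.08 and -0.19 ± 0.10. With the covariate 3 of the 15 member probes were at an unadjusted p under 0.05, against 6 without it. Over all 23693 kept probes the count fell too, from 1759 to 1213. T cell markers as a covariate left the Fasn probe A_44_P235985 at -0.25.

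Members that varied together within groups were looked for next. Of 36 gene pairs, each gene standing by its brightest kept probe, 5 passed an adjusted permutation p of 0.05 over 43 relations, 3 with a positive and 2 with a negative r. The share of pairs among all genes that would pass was not computed, so the count is a description. Srebf1 and the brighter Acaca probe, A_44_P514379, were the closest pair, with r of 0.75 over 23 arrays (Spearman's rho 0.82, permutation p 0.00011 for r, adjusted p 0.00473). Without the 2 arrays farthest from the Srebf1 median r was 0.70, with slide means removed 0.70, and without the 4 arrays of narrow spread 0.72. The other Acaca probe, A_42_P489761, had r of -0.016 and -0.064 with the 2 Srebf1 probes, so the relation is that of 1 Acaca probe. Of the 9820 other named genes, 18, or 0.183%, were at least as close to Srebf1 as Acaca, which is itself counted among them. The probes share an array, a pool and a normalization, and genes are not independent of each other.

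The brighter Fasn probe went with Fads1 (r of 0.71, rho of 0.56, permutation p 0.00061 for r, adjusted p 0.00874) and with the brighter Acaca probe (r of 0.61, rho of 0.49, permutation p 0.00834 for r, adjusted p 0.0398). Without the 2 farthest arrays these r were 0.61 and 0.40, so the second rests partly on those arrays. The Fasn probe A_44_P235985 had r of 0.34 with Fads1. At least as close to Fasn as Fads1 were 49 of 9820 genes, 0.499%, and as close as Acaca were 226, or 2.3%, the partner itself counted each time. Elovl6 ran against Srebf1 (r of -0.63, rho of -0.63, permutation p 0.00355 for r, adjusted p 0.0254) and against Scd (r of -0.54, rho of -0.50, permutation p 0.00822 for r, adjusted p 0.0398). Without the 2 farthest arrays these were -0.68 and -0.41. Genes with an r to Srebf1 as low as that of Elovl6, itself counted, were 17 of 9820, 0.173%. For Scd they were 99, or 1.01%. Median centring turned the r of Srebf1 and Elovl6 to 0.27, and gave 0.90 for Srebf1 and Acaca.

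Fasn and Srebf1, the enzyme and its regulator, had r of 0.30 by their brighter probes (permutation p 0.186, adjusted p 0.342). This r depended on the normalization: it was 0.83 with median centring, 0.38 with the scanner software's ratio and 0.15 with Cy5 alone. The Fasn probe A_44_P235985 had r of 0.59 and 0.44 with the 2 Srebf1 probes, which were not among the 43 relations tested. Probes of 1 gene went together for Fasn (r of 0.70), Srebf1 (0.71) and Elovl6 (0.62), each at an adjusted permutation p under 0.05. Acly had no partner among the members that passed with loess. With median centring its r ran from 0.22 with Fads1 to 0.89 with Fasn, and was 0.77 with Srebf1.

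**Figure D4:**
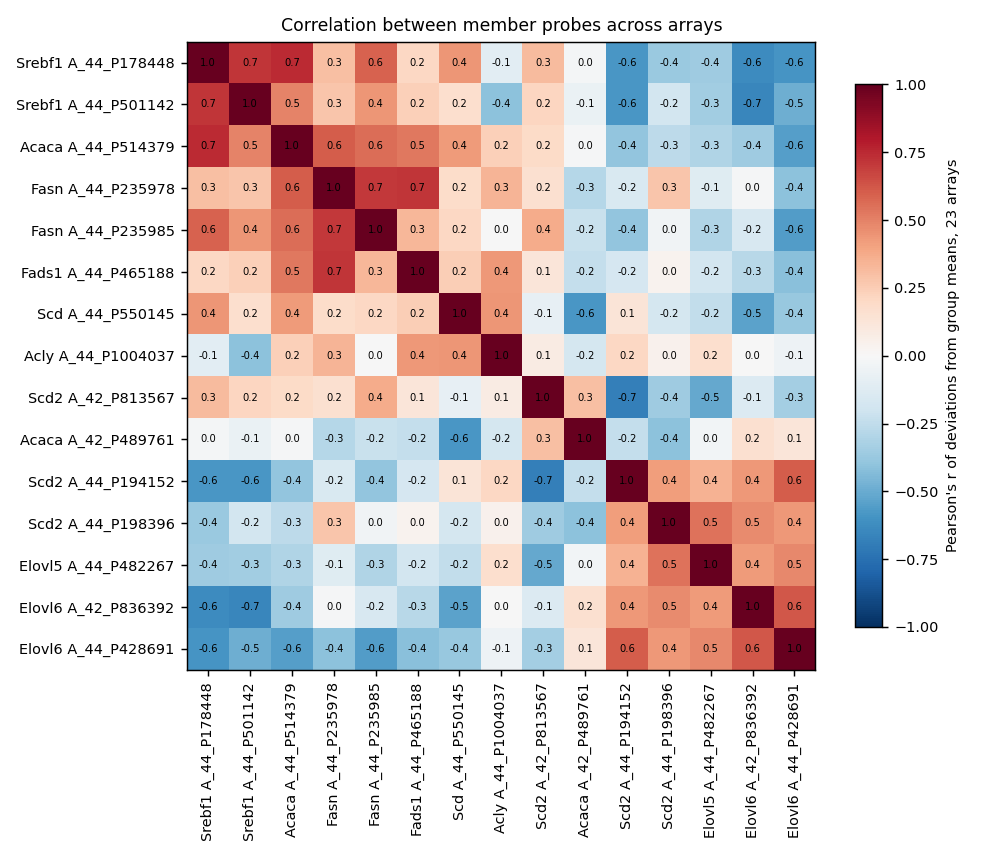
Pearson's r between the 15 kept probes over 23 arrays, after the group means were taken out (red positive, blue negative, scale -1 to 1). Srebf1, the brighter Acaca probe and Fasn form a block of positive r that reaches 0.75, the Acaca probe A_42_P489761 lies outside it, and the Elovl6, Elovl5 and dimmer Scd2 probes run against Srebf1.

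The named genes whose pattern was most like a member's were found by Pearson's r over the 23 arrays, among 9820 genes. For Fasn they were Snrnp200 (r of 0.83), Aacs (0.82), Ddx23 (0.82), Galt (0.82) and Med23 (0.79). Aacs activates acetoacetate for lipid synthesis, and Snrnp200 and Ddx23 are parts of the spliceosome. For Srebf1 they were Atg13 (0.87), Traf2 (0.86), Sdf4 (0.86), Mtrex (0.79) and Hes6 (0.79). For the bright Scd2 probe A_42_P813567 they were Rbm6 (0.81), Nsa2 (0.79), Ccdc61 (0.79), Hnrnpk (0.77) and Fam89a (0.77). The other Scd2 probes had r of -0.68 and -0.36 with that probe, so this list is that of 1 probe. No other normalization was tried for these lists. Each r is a description of these 23 arrays, with rho between 0.67 and 0.89.

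The wider pathway was followed through 5 lists of other genes, of which 82 genes were kept. These lists too were chosen with earlier results of these data known. For the mean of the sexes 61 of the 82 were lower in CR, against 49.3% of all kept probes. At an unadjusted limma p under 0.05, 11 were lower and 2 higher, against 4.96% and 2.46% of all kept probes, and none passed the adjusted test (smallest adjusted p 0.592). The genes that supply acetyl-CoA and NADPH were lower in 14 of 14 cases, 3 of them at an unadjusted p under 0.05, with a median difference of -0.08. Partners of elongation and desaturation were lower in 9 of 12, with a median of -0.06. Mitochondrial fatty acid synthesis was lower in 6 of 8, with a median of -0.04. Regulators of lipogenic transcription were lower in 21 of 30, 6 lower and 1 higher at an unadjusted p under 0.05, with a median of -0.03, and acyl-CoA synthetases with the first glycerolipid steps were lower in 11 of 18, with a median of -0.03. The 9 members by their brightest probes had a median of -0.11. Over all kept probes the median was 0.0012.

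**Figure D5:**
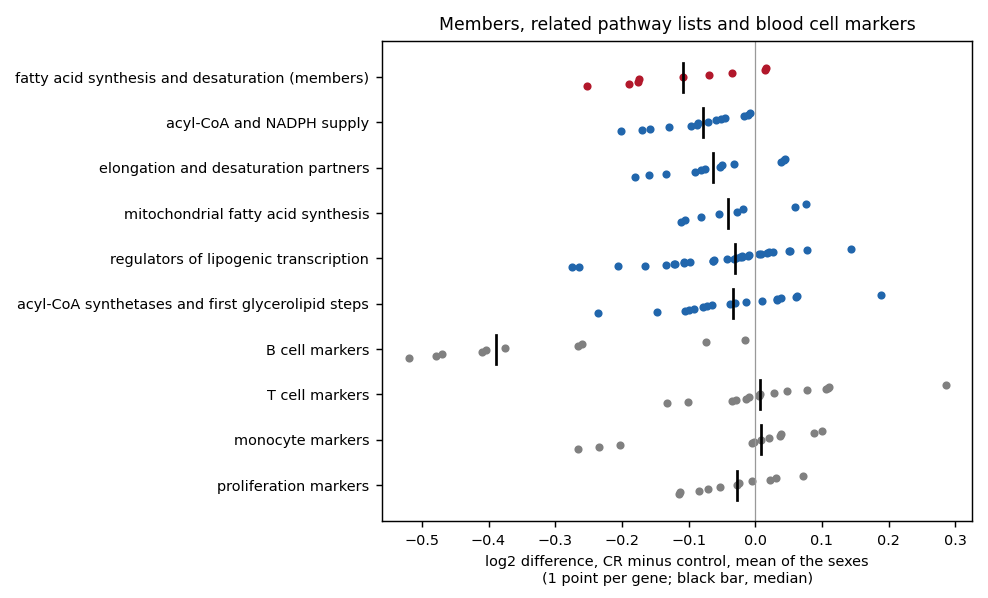
Difference for the mean of the sexes, CR minus control (horizontal axis, log2), 1 point per gene, with the list median as a black bar, for the members (red), the pathway lists (blue) and cell type markers (grey). The B cell markers have the lowest median, -0.39, and the members -0.11.

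The genes of these lists with the smallest p, of which 5 are described here, were lower in CR. Fads3, a desaturase of the Fads1 family, averaged -0.15 ± 0.08 in CR males (SD, n = 5) and 0.10 ± 0.17 in control males (SD, n = 6), and 0.01 ± 0.11 in CR females and 0.13 ± 0.09 in control females (SD, n = 6 each). Its difference for the mean of the sexes was -0.18 ± 0.05 (SE; unadjusted limma p 0.00174, adjusted p 0.592). Rxrb and Rxra, nuclear receptors that pair with the liver X receptors upstream of Srebf1, had -0.26 ± 0.08 and -0.12 ± 0.05 (SE). Usf2, a factor that binds E-boxes of the Fasn promoter, had -0.27 ± 0.09, and Akt1, a kinase of insulin signalling, -0.21 ± 0.08 (SE). None of the 5 passed the adjusted test, whose p for them lay between 0.592 and 0.601.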

How the data were processed

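The data were 23 two-colour Agilent rat arrays, 1 per pup. Per the submitters' processing notes, the authors' scanner software was Agilent Feature Extraction 10.5.1.1. The deposited scanner files hold an intensity per spot and channel, unnormalized, per the file headers. They also hold a log10 ratio of Cy5 over Cy3 from the scanner software and other columns of spot flags, per the file headers. The authors also deposited log2 values in a table, for 22920 of 43379 spots. The method behind it is not given in the sources used here. Its columns share a median of 7.226 and track that array's Cy5 level (r of 0.973 to 0.998), so scale and centring beyond that stay unknown and it served as an alternative only.

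Intensities were corrected with limma's normexp (offset 50) and loess-normalized array by array, control spots having weight 0. Outlier spots became missing values and repeat spots were averaged per probe. The filter asked for Cy5 well above background on 50% or more of the arrays in 1 or more groups, which kept 23693 of 41012 probes. The model of 4 group means came from limma 3.58.1 (R 4.3.3), with moderated variances (prior degrees of freedom 3.47), checked on simulated data. The contrasts were CR minus control within each sex and averaged over both, the difference of the effects in males and females, and males minus females. Exact two-sided permutation tests took 462 assignments in males, 924 in females and all 426888 pairs. Correlations used deviations from group means and 100000 permutations within groups (Python 3.11.15, numpy 2.4.6). Probe positions follow the array design (rn4). RefSeq names and windows come from GRCr8.

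The labels' replicate numbers were not taken as pairs, and the closing section gives the correlations of same-numbered pups. Slides came from the array barcodes. The members and gene lists were chosen with earlier results of these data known. Named are all member probes, the 6 genes with the smallest p for the mean of the sexes among the other pathway lists (1 of them is not reported here), and the 5 genes closest to Fasn, Scd2 and Srebf1 in Pearson's r.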

Additional observations from a re-analysis of the deposited data

Results flagged for a closer look

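Of 60 sets of values, each 1 probe in 1 group, 2 held a pup whose gap to its neighbour was large against the whole range of the group (Dixon's test at 95%), and chance alone flags about 1 set in 20. CR female 6 stood at 0.24 for Acly, above the other 5 CR females, whose values ran from -0.05 to 0.04. CR male 3 stood at 0.12 for the Fasn probe A_44_P235978, above the other 4 CR males, whose values ran from -0.13 to -0.06. At the other Fasn probe the same pup read -0.12.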

How the results depend on the processing

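No member probe passed the adjusted test in any contrast under any alternative run. The smallest adjusted p was 0.0769, for the mean of the sexes without CR male 2. The count of member probes at an unadjusted p under 0.05 was 2 in males. It was 9 with median centring and 0 with the B cell covariate. It was 1 with scale normalization between arrays, an offset of 10, 1 probe per gene, the slide or the replicate block, or the T cell covariate. It was also 1 without either set of arrays that stood apart (a choice made after seeing the data). Over all 23693 kept probes the male count was 1772, with median centring 7291 and with the B cell covariate 1386. In the settings that gave 1 member probe it lay between 919 and 2097. In females the count of 5 was 3 with median centring, the deposited table, or without the 2 arrays of lowest correlation. It was 2 with 1 probe per gene. Over all probes tested the female count was 1123, and in these settings 324, 1247, 1428 and 964 in that order. For the mean of the sexes the count of 6 ran from 3, with the B cell covariate, to 9 over 17 alternatives. Over all probes tested it was 1759 and ran from 1213, with the B cell covariate, to 4240, with median centring. Leaving out 1 pup at a time gave 1 to 3 in males and 3 to 7 in females. The lowest count in females came without CR female 1 or CR female 5. In males it came without CR male 1, 4 or 5 or control male 2 or 4. In those runs with the lowest member counts, all kept probes at that level numbered 946 to 2113 in males, and 1180 and 1374 in females. Over every run that left out 1 pup they numbered 946 to 2740 in males and 699 to 1596 in females.

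The replicate numbers were not taken as pairs. Whether they pair the pups was not settled, since pups with different numbers were not compared. Same-numbered pups shared a slide in all 6 female pairs and in no male pair. Same-numbered pups correlated between 0.05 and 0.20 in males, over 0.1 in 3 of 5 pairs, and between -0.23 and 0.32 in females, over 0.1 in 3 of 6. The replicate block left 6 member probes at an unadjusted p under 0.05 for the mean of the sexes, beside 1941 of all 23693 kept probes.

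Median centring shifted the median of all probes by -0.18 in males and -0.10 for the mean of the sexes. Under it the difference of the Fasn effects was -0.21 and -0.20, and Acaca A_42_P489761 in males had -0.024. The latter was -0.0074 with Cy5 alone and -0.017 with the B cell covariate, and its males minus females value was 0.014 with Cy5 alone. With the scanner software's ratio the correlations were -0.45 for Srebf1 with Elovl6, 0.50 for Fasn with Fads1, -0.49 for Scd with Elovl6, 0.59 for the Elovl6 probes and 0.19 for the Acaca probes. With median centring they were 0.27 for Srebf1 with Elovl6, 0.37 for Fasn with Fads1, -0.20 for Scd with Elovl6, 0.44 for the Acaca probes, 0.31 and 0.22 for the bright Scd2 probe with the dimmer ones and 0.69 between the latter. With Cy5 alone they were -0.57 for Srebf1 with Elovl6, 0.37 for Acaca with Fasn, -0.32 for Scd with Elovl6, 0.40 for the Acaca probes, 0.50 for the Fasn probes and -0.48 for the bright Scd2 probe with A_44_P194152. The cause was not tested. Signal over background limits Scd, Fads1, Elovl5 and the dimmer Acaca and Elovl6 probes.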
